A study of Rattus norvegicus with 16 samples.

Results

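The genes described here are the 1-exon genes of a histone cluster on chromosome 17 of the rat, measured by bulk RNA-seq in a brain nucleus of the basal forebrain, the nucleus basalis of Meynert, from which cholinergic fibres reach the cortex. They were chosen by annotation and a count minimum: chromosome 17 of Rnor_6.0, 1 annotated exon, a start between 43 and 45.5 Mb, a length of 300 to 750 bases, and 10 or more counts summed over the 16 libraries. Of 105 annotated genes in this span 71 had 1 exon, 39 met the position, exon and length limits, and 25 of those also met the count minimum, out of 32883 genes in the files. These 25 are called the members below. All libraries came from Long Evans rats carrying the ChAT::Cre transgene, which places Cre recombinase under the control of the choline acetyltransferase gene, at an age of at least 70 days. The 4 groups were stressed females, control females, stressed males and control males, with 4 libraries each. The labels give neither the stress procedure nor its timing, and do not say that libraries stem from different animals, so a p-value reflects only how these libraries spread, which may be technical. A library is named by its group and the number in its title.

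Replication-dependent histone genes supply the histones that package newly copied DNA. The core histones form the spool of the nucleosome, and linker histones of the H1 family bind the DNA between nucleosomes and compact it further. These genes have no introns, lie in clusters, and give mRNAs that end in a stem-loop in place of a poly(A) tail and that accumulate mainly while a cell copies its DNA. Most neurons of the adult brain no longer divide, so the transcripts are usually scarce there. H1 proteins are longer than any core histone, and each core histone family has a nearly fixed coding length, which is why the annotated length sorts such genes even where no name is at hand.

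The files give Ensembl identifiers only, and 0 of the 25 members could be matched to a symbol in the RefSeq table, so members are given by identifier and position and no histone name is attached to any of them. The label of the cluster could therefore be checked only by length. Of the 39 genes that met the position, exon and length limits, 36 had a length that is a multiple of 3, as a coding sequence has. Just 4 lengths recurred, 312 (6 genes), 381 (5), 393 (9) and 411 bases (10). A further 6 ran from 639 to 745 bases, and the remaining 3 fell in none of these classes. RefSeq lists 39 histone symbols on chromosome 17 of its own build, GRCr8, among them 6 of the H1 family. The markers of cholinergic neurons and of dividing cells are also known by symbol only, so the labelled tissue was not checked here.

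The 2 members called for stress, described below, belong to the 6 genes longer than 600 bases, and H1 proteins are longer than core histones. The promoters of the 6 H1 symbols are shown for that reason, as RefSeq gives them on GRCr8, from 150 bases before the annotated start to 10 bases after it. Capitals mark the H1 box (AAACACA), an element known from H1 promoters, the CCAAT box (CCAAT) and the TATA core (TATA). No identifier pairs a promoter with a member, and the build differs from that of the files. Lengths of H1 proteins were not at hand, so none of the 6 long genes is shown to be an H1 gene. H4f3 is counted with the H1 symbols because RefSeq gives it the synonym Hist1h1d.
H1f1 (chr17:41794859-41795018, minus strand): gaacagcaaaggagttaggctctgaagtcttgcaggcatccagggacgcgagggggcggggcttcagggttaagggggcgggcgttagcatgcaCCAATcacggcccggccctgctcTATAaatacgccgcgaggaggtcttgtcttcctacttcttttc
H1f2 (chr17:41820444-41820603, minus strand): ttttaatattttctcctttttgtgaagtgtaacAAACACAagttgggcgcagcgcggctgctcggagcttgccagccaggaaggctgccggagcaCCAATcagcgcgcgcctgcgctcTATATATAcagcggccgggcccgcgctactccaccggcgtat
H1f6 (chr17:41855951-41856110, minus strand): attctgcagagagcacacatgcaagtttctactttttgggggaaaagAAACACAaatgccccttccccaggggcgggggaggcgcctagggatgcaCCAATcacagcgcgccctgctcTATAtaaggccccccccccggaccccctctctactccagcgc
H1f4 (chr17:41914275-41914434, plus strand): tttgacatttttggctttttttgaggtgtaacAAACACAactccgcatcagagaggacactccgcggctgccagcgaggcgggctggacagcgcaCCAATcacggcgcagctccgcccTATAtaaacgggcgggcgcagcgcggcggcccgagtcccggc
H4f3 (chr17:41980332-41980491, minus strand): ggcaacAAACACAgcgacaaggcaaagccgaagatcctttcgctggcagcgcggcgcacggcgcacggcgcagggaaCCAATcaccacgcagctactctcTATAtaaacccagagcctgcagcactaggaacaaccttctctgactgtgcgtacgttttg
H1f5 (chr17:47421725-47421884, plus strand): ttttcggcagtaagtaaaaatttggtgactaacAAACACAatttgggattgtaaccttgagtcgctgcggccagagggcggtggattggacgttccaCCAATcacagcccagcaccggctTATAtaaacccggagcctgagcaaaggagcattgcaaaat
All 6 windows held a CCAAT box and a TATA core, and in each the order was CCAAT box, then TATA core, then start. The H1 box stood upstream of both in 5 of the 6, from 103 to 144 bases before the start, and these letters were not found in the window of H1f1. Searched on both strands, AAACACA occurred in 3 of the 31 core histone promoters listed for chromosome 17 (9.68%) and in 3.46% of 33469 promoters of the same length. CCAAT occurred in 28 of the 31 core histone promoters (90.3%) and in 24.5% of all promoters. TATA occurred in 24 of the 31 (77.4%) and in 24.1% of all. The H1 and core histone promoters on chromosome 17 thus shared the CCAAT box and the TATA core in these windows, while the H1 box stood in 83.3% of the H1 windows and 9.68% of the core ones.

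Transcripts of the cluster were scarce. The members held 8686 counts in all, which is 0.00571% of the 152.1 M (mega) counts of nuclear genes in the 16 libraries. Per library, 64.2% to 82.5% of counts were mitochondrial and 5.86 to 22.6 M were nuclear. The total was 22.7 to 38.2 M in the 13 libraries counted with HTSeq and 63.1 to 73.8 M in the 3 counted with featureCounts (female control 10, male stress 11 and male control 20). Of the 25 members, 9 had under 30 counts over all 16 libraries, 16 had under 100, and 9 had at least 1 count in every library. At the count minimum stood ENSRNOG00000046434 with 10 counts just inside and ENSRNOG00000058187 with 9 just outside. Of the 14 genes below it, 8 had 1 to 9 counts and 6 had none, for which the 3 counts that a zero allows correspond to 0.0197 per M nuclear counts over all libraries, as far as counting error goes.

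Counts were concentrated in 3 members that held 7003 of the 8686 (80.6%): ENSRNOG00000047459 (chromosome 17, 43734461 to 43735120, plus strand, 660 bases) with 2849, ENSRNOG00000054978 (43639749 to 43640387, minus strand, 639 bases) with 2400, and ENSRNOG00000051891 (43770250 to 43770561, minus strand, 312 bases) with 1754. Per length, on the scale of TMM-normalised counts per M counts (CPM) per kb averaged over the 4 group means, the 312-base gene ENSRNOG00000051891 was highest at 9.29, followed by ENSRNOG00000047459 at 7.40 and ENSRNOG00000054978 at 6.41. The fourth, ENSRNOG00000058444 (44744591 to 44744902, minus strand, 312 bases), had a level of 1.02 CPM per kb, so a gap of several-fold separated the leading 3 from the rest. Places 5 to 8 were taken by ENSRNOG00000050933 (312 bases, 0.873), ENSRNOG00000048264 (663 bases, 0.711), ENSRNOG00000060355 (669 bases, 0.614) and ENSRNOG00000059949 (381 bases, 0.612). ENSRNOG00000045644 (411 bases) followed at 0.501 and ENSRNOG00000046636 (312 bases) at 0.395 CPM per kb. The lowest was the longest member, ENSRNOG00000061863 (43675190 to 43675934, 745 bases), with 0.0258 CPM per kb from 14 counts.

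**Figure D1:**
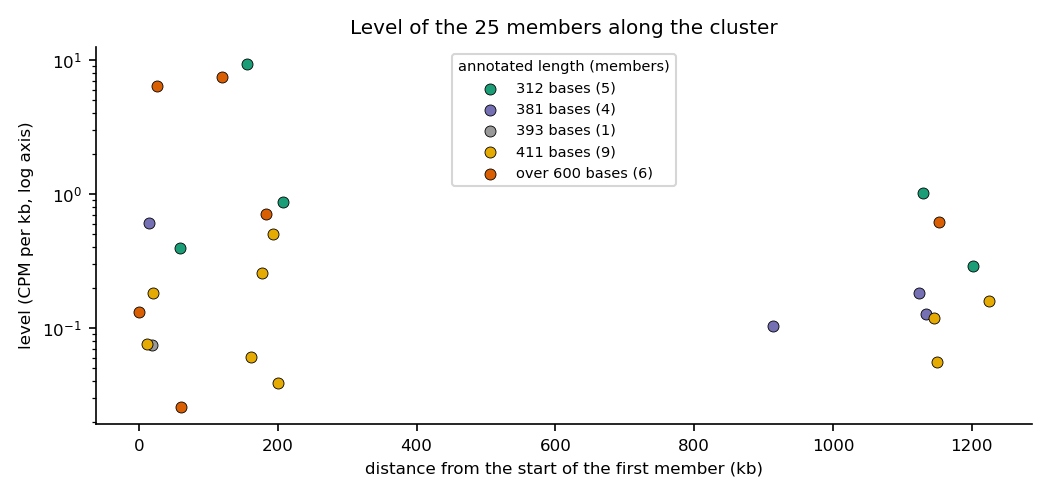
Level of each of the 25 members (vertical log axis, CPM per kb, mean of the 4 group means) against its distance from the first member (kb), coloured by annotated length. The 3 highest points, at 6.41 to 9.29 CPM per kb, all lie in the first of 2 blocks.

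The 39 genes that met the annotation limits lay in 2 blocks separated by 698 kb. The first, from 43422454 to 43821536, held 21 of the 39 genes that met the annotation limits, 16 of the members and 92.5% of the member counts. All 3 of the most counted members, with 80.6% of the member counts, lie in this block. The second, from 44519860 to 44841382, held 18 and 9. Both strands were used, with 10 members on the plus and 15 on the minus strand. Highly and sparsely counted members stood side by side: in the order of the members along the chromosome, the 745-base gene with 14 counts lies between the 312-base ENSRNOG00000046636 with 73 and the 660-base ENSRNOG00000047459 with 2849.

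Length classes differed in how much of the cluster's RNA they held. The 6 members over 600 bases held 67.4% of the member counts and the 5 members of 312 bases 25.7%. The 9 members of 411 bases held 4.11%, the 4 of 381 bases 2.61%, and the single member of 393 bases 0.207%. The 393-base class stood apart: all 9 of its genes together had 38 counts, with a median of 1 per gene. Of these 9, 8 overlap a gene of 137 or 138 bases annotated on the other strand, among them the member ENSRNOG00000049649. By its header line, featureCounts ran without strand, and then gives a read that touches both overlapping genes to neither, while the HTSeq setting is not given in the sources used here. Reads that matched more than 1 place were not counted either, and accounted for 10.9% to 17.5% of what the HTSeq files list. For members with near-identical copies, few transcripts and few uniquely placed reads cannot be told apart, so their levels are uncertain.

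Stress on average over the sexes is the mean of the effects in females and in males. By edgeR's quasi-likelihood test over 14241 genes, in which a gene was called at a Benjamini-Hochberg adjusted p under 0.05, 2 of the 8 members that passed the filter on low counts rose and 0 fell. Over all genes tested 33 were called higher, 0.232%, and 15 lower. With so few genes called lower, 0 of 8 falling says nothing about the members. The 2 that rose were the most counted members, ENSRNOG00000054978 and ENSRNOG00000047459, both longer than 600 bases. The third gene with high counts, the 312-base ENSRNOG00000051891, did not pass. In bulk tissue, more cells that express a gene and more of its RNA per cell cannot be told apart.

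For ENSRNOG00000054978 the 4 stressed females had 5.94, 6.10, 4.20 and 4.02 CPM and the 4 control females 3.23, 3.16, 2.62 and 1.78. The stressed males had 4.84, 4.32, 7.78 and 5.01 CPM and the control males 3.10, 3.69, 3.08 and 2.65. Every stressed library stood above every control library of its sex, and indeed above every control library of either sex. The means were 5.06 ± 1.11 against 2.69 ± 0.67 CPM in females and 5.49 ± 1.56 against 3.13 ± 0.43 in males (SD, n = 4). Averaged over the sexes the gene rose 1.84-fold, a log2 change of 0.88 (SE 0.15, edgeR adjusted p = 0.00426).

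ENSRNOG00000047459, which lies in the same block on the other strand, had a change of similar size. Its levels were 6.18, 7.28, 6.18 and 3.68 CPM in stressed females and 3.16, 3.86, 4.24 and 1.58 in control females. In males they were 6.36, 6.71, 8.32 and 5.87 CPM with stress and 3.16, 4.51, 4.19 and 2.90 in controls. The groups were separate in males, while in females the lowest stressed library, female stress 1, stood below 2 of the controls. The gene rose 1.86-fold on average, a log2 change of 0.89 (SE 0.17, edgeR adjusted p = 0.0159), from means of 3.21 ± 1.17 to 5.83 ± 1.52 CPM in females and from 3.69 ± 0.78 to 6.82 ± 1.06 in males (SD, n = 4). It was not called without female stress 3 (adjusted p = 0.0538) or without male control 20 (adjusted p = 0.0550).

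**Figure D2:**
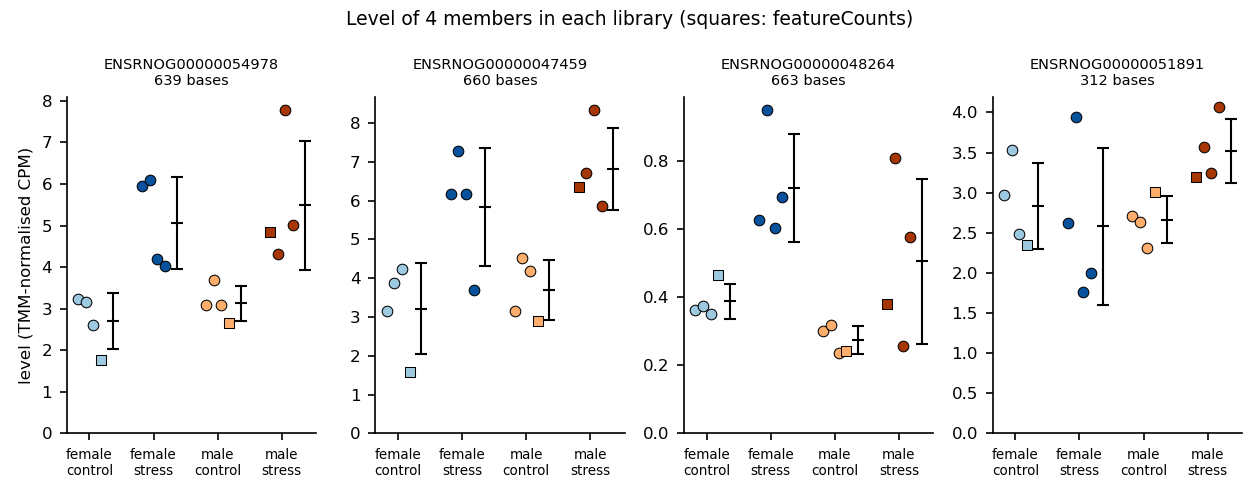
Level (TMM-normalised CPM, vertical axis from 0) of 4 members in each library, by group. Points are libraries, squares those counted with featureCounts, bars the mean ± SD of 4. For the 639-base gene all stressed libraries (4.02 to 7.78 CPM) lie above all control libraries (1.78 to 3.69), while for the 312-base gene the female groups overlap.

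In both genes the lowest female control was female control 10 and the lowest male control was male control 20, and both were counted with featureCounts, as was male stress 11. Without these 3 libraries the log2 fold changes were 0.78 (SE 0.16, adjusted p = 0.0314) for ENSRNOG00000054978 and 0.73 (SE 0.15, adjusted p = 0.0430) for ENSRNOG00000047459. With the counting tool as a term in the fit they were 0.83 (adjusted p = 0.00317) and 0.85 (adjusted p = 0.00540). Both genes thus passed among the 13 libraries counted with HTSeq alone, where 0.181% of all genes tested were called higher, and with the tool as a term, where 0.232% were.

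In females 0 of the 8 tested members passed, where 9 of all genes did (0.0632%), and in males 0 of 8, where 17 of all genes did (0.119%). At an unadjusted p under 0.05 the numbers were 3 of 8 in females, against 923 of all genes (6.48%), and 2 of 8 in males, against 1097 (7.70%). DESeq2 called 1 member in females, where it called 27 of all genes (0.19%), and 0 in males, where it called 30 (0.211%). The log2 fold change of ENSRNOG00000054978 was 0.94 (SE 0.22, adjusted p = 0.163) in females and 0.82 (SE 0.21, adjusted p = 0.257) in males, and DESeq2 gave an adjusted p of 0.0269 in females. For ENSRNOG00000047459 the values were 0.90 (SE 0.25, adjusted p = 0.364) and 0.89 (SE 0.24, adjusted p = 0.287). Fitted on the male libraries alone, the second gene passed in males (adjusted p = 0.0376), where that fit called 27 of 13545 genes (0.199%) against 17 in the fit over all libraries.

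The effects of these 2 genes were close in the 2 sexes. The difference of the log2 fold changes, females minus males, was 0.12 (SE 0.31) for ENSRNOG00000054978 and 0.01 (SE 0.34) for ENSRNOG00000047459, and neither difference exceeded its SE. For the difference between the sexes 0 of the 8 members passed by edgeR, where 0% of all genes did. At an unadjusted p under 0.05 there were 0 of 8, against 571 of all genes (4.01%). DESeq2 called 0 of the 8, where it called 1 of all genes.

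The other 2 tested members over 600 bases had effects above 0 that did not pass. ENSRNOG00000048264 (43797721 to 43798383, minus strand, 663 bases, 284 counts) had 0.627, 0.950, 0.604 and 0.695 CPM in stressed females against 0.363, 0.374, 0.351 and 0.464 in controls, and 0.378, 0.809, 0.256 and 0.575 in stressed males against 0.301, 0.318, 0.235 and 0.242. The female groups did not overlap and the male groups did. Its log2 fold change, 0.87 (SE 0.30) on average, was close to that of the 2 genes that rose, and it did not pass (adjusted p = 0.296). ENSRNOG00000060355 (44766313 to 44766981, plus strand, 669 bases, 243 counts), the only member over 600 bases in the second block, had 0.61 (SE 0.34, adjusted p = 0.559), with group means of 0.413 against 0.318 CPM in females and 0.586 against 0.325 in males.

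Among the tested members of 312 and 381 bases none passed. ENSRNOG00000051891 had 2.63, 3.94, 1.76 and 1.99 CPM in stressed females against 2.98, 3.53, 2.49 and 2.35 in controls, and 3.20, 3.57, 3.24 and 4.06 in stressed males against 2.71, 2.64, 2.31 and 3.01. The female groups overlapped and the male groups did not. Its log2 fold change was 0.14 on average (SE 0.16, adjusted p = 0.830), -0.12 in females (SE 0.22, adjusted p = 0.958) and 0.39 in males (SE 0.22, adjusted p = 0.696), with a difference between the sexes of -0.52 (SE 0.31). ENSRNOG00000058444 had an average log2 fold change of 0.52 (SE 0.41, adjusted p = 0.719), ENSRNOG00000050933 (43821225 to 43821536) 0.18 (SE 0.39, adjusted p = 0.930) and the 381-base ENSRNOG00000059949 (43627930 to 43628310) -0.06 (SE 0.45, adjusted p = 0.983). The first was 0.23 without the featureCounts libraries, and the second ran from 0.03 to 0.37 with single libraries left out. These 3 had 137 to 190 counts over all libraries, and their standard errors of 0.39 to 0.45 are too wide to show, at this depth, a change of the size seen in the longer genes.

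**Figure D3:**
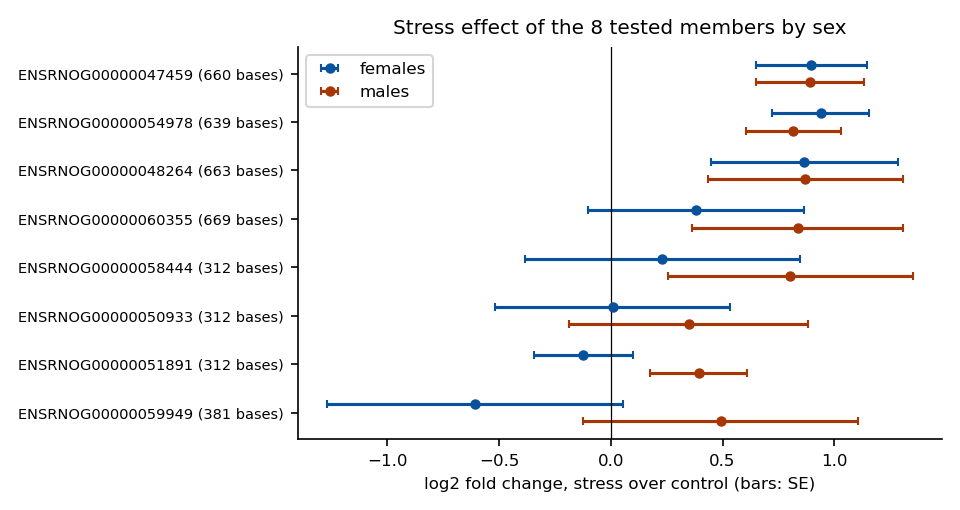
Log2 fold change of stress over control (horizontal axis, bars ± SE) of the 8 tested members, in females and in males, ordered by the average. The 4 genes over 600 bases lie at 0.38 to 0.94 in both sexes and the 4 shorter genes at -0.61 to 0.80.

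As a description of the tested members, the average effect was above 0 in 7 of 8, with a median log2 fold change of 0.56, where the median over all 14241 genes was 0.01. The 4 over 600 bases, which include the 2 called genes, had a median of 0.87 and the 4 of 312 and 381 bases one of 0.16. By sex these 2 medians were 0.88 and -0.06 in females and 0.85 and 0.44 in males. In females the median of the 8 was 0.31 (6 above 0) and in males 0.81 (8 above 0). The female median depended on single libraries, with 0.54 without female control 8, 0.49 without female stress 1, 0.19 without female control 6 and 0.18 without female control 10. Members passed the filter by their counts, so these medians describe the better counted members and not the cluster. With the filter reduced to 10 counts over all libraries, all 25 were fitted: 18 lay above 0 and 7 below, with a median of 0.46, and the same 2 genes were called. Over all 19723 genes of that fit 10151 lay above 0 and 9572 below, with a median of 0.01, and 35 were called higher (0.177%). The other annotated genes of the span give a comparison by place. Of these, 18 were tested, their median was 0.03 and 0 were called, with 3 at an unadjusted p under 0.05 (16.7%). Among 179 tested 1-exon genes of the same lengths elsewhere in the genome the median was 0.07 and 0 were called, with 14 at an unadjusted p under 0.05 (7.82%). By the same measure there were 3 of the 8 tested members and 1448 of all 14241 genes (10.2%).

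Stressed libraries that all exceeded all control libraries were counted as a measure without a fitted model. It used the TMM-normalised CPM and the filtered genes of the edgeR fit, so it is not independent of that fit. In females such a separation held for 2 of the 8 tested members, against 1.72% of all genes tested, and in males for 3 of 8, against 2.96%. In both sexes it held for 1 of 8, ENSRNOG00000054978, against 0.14%. In neither sex did the reverse occur for a member, with every stressed library below every control. The share of all genes with that reverse was not counted, so its absence says nothing about the members.

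Ratios between members within a library need no scaling between libraries. They were formed for the 3 pairs of the 3 most counted members after their levels and calls had been seen, so they restate those levels on a scale free of library size and carry no test. The count of ENSRNOG00000054978 over that of ENSRNOG00000051891 was 2.26, 1.55, 2.39 and 2.02 in stressed females and 1.09, 0.894, 1.05 and 0.755 in control females. In males it was 1.51, 1.21, 2.40 and 1.23 with stress and 1.14, 1.40, 1.34 and 0.879 in controls. The female groups were separate and the male groups overlapped. Averaged over the sexes the ratio was 1.68-fold higher in stressed than in control libraries.

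The ratio of ENSRNOG00000047459 to ENSRNOG00000051891 was 1.74-fold higher in stressed libraries on average, with group means of 2.39 against 1.13 in females and 1.97 against 1.41 in males. Its female groups were separate too, and its male groups overlapped. Without the 3 featureCounts libraries the 2 ratios were 1.55-fold and 1.51-fold higher. The ratio of the 2 genes that rose, ENSRNOG00000047459 over ENSRNOG00000054978, had group means of 1.16 to 1.28 and differed by 1.04-fold between stressed and control libraries.

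**Figure D4:**
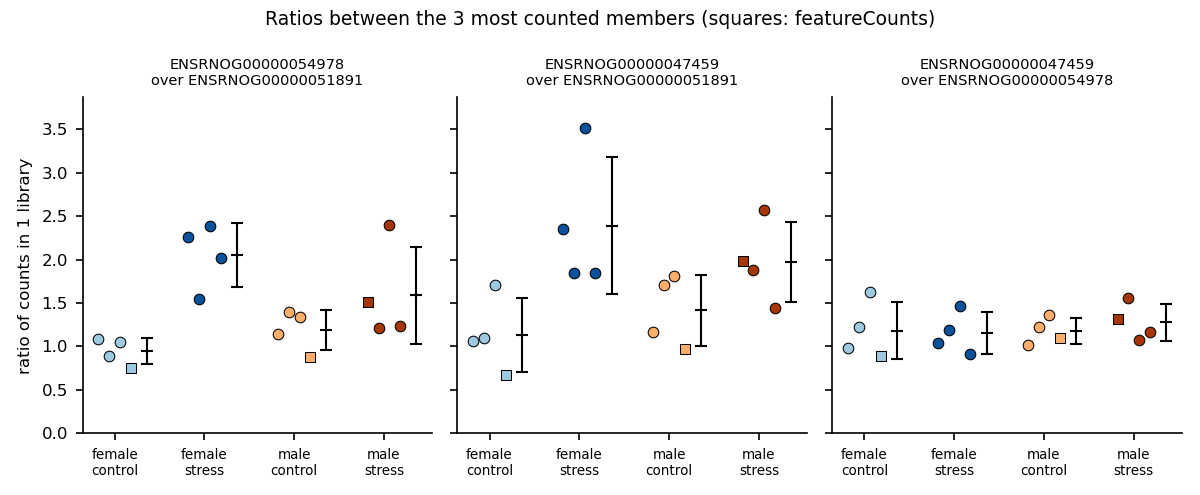
Ratio of counts between the 3 most counted members in each library (vertical axis from 0), by group, with mean ± SD of 4 and squares for featureCounts. Both ratios over the 312-base gene are higher in stressed than in control females in each library, while the ratio of the 2 longer genes has group means of 1.16 to 1.28.

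Summed over the 25 members, the level was 16.6 ± 3.8 CPM in stressed and 11.2 ± 2.5 in control females, and in males 19.2 ± 1.7 with stress and 11.8 ± 0.92 without (SD, n = 4). Single libraries ran from 12.6 to 21.6 against 7.61 to 13.5 CPM in females, which overlap, and from 17.8 to 21.6 against 10.8 to 13.0 in males, which do not. Per M nuclear counts, which leaves mitochondrial genes out, the ranges were 53.6 to 88.9 against 29.8 to 54.5 in females and 73.0 to 88.3 against 43.1 to 53.8 in males. The 6 members over 600 bases made up most of the gap, with means of 12.2 against 6.70 CPM in females and 13.5 against 7.51 in males. The 19 shorter members summed to 4.43 against 4.48 CPM in females and 5.74 against 4.24 in males. Without the 3 most counted members the remaining 22 summed to 3.17 against 2.43 CPM in females and 3.42 against 2.27 in males. The sum over members is a description of these libraries and carries no test.

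**Figure D5:**
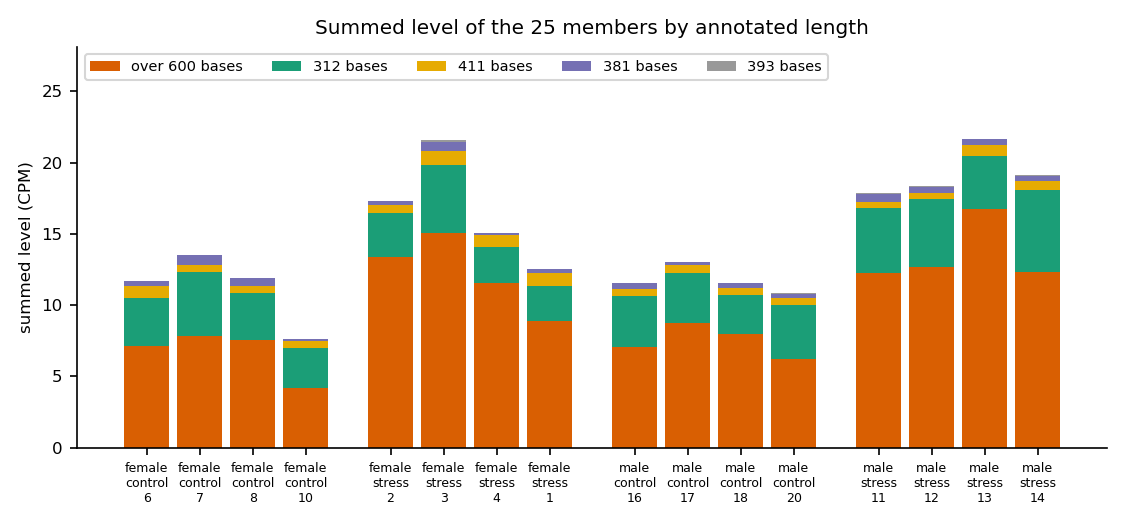
Summed level of the 25 members (CPM, vertical axis from 0) in each library, with bars stacked by annotated length. Members over 600 bases make up the largest share of each bar, and the summed level of all members runs from 17.8 to 21.6 in stressed males and from 10.8 to 13.0 in control males.

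Members too sparse for the filter are given as counts, in the order of libraries 2, 3, 4 and 1 of stressed females, 6, 7, 8 and 10 of control females, 11 to 14 of stressed males and 16, 17, 18 and 20 of control males. ENSRNOG00000056281 (44839721 to 44840131, 411 bases) had 1, 2, 9 and 11 counts in stressed females and 0, 1, 0 and 0 in control females, then 4, 0, 1 and 0 in stressed and 7, 0, 1 and 0 in control males. Its counts came mostly from 2 stressed female libraries and 1 control male library. Without the filter its adjusted p was 0.758 in females (edgeR). ENSRNOG00000053155 (44760056 to 44760466, 411 bases) had 0, 3, 2 and 2 counts in stressed and 0, 0, 0 and 2 in control females, and 4, 4, 5 and 2 in stressed and 1, 2, 2 and 0 in control males. Its adjusted p for the average effect was 0.537 without the filter. ENSRNOG00000017175 (43614101 to 43614844, 744 bases) had 19 counts in stressed and 8 in control females, and 16 and 19 in males, of which 14 came from male control 20 alone. The 411-base ENSRNOG00000045644 had 33 counts in stressed and 36 in control females and 31 against 19 in males, and the 312-base ENSRNOG00000046636 had 18 against 16 and 25 against 14. In these 2 genes the CPM of stressed and control libraries overlapped in both sexes. The 745-base ENSRNOG00000061863 had 6 and 7 counts in stressed and control females and 1 and 0 in males. The remaining 11 members had 10 to 69 counts over all libraries, and without the filter 0 of them was called in any of the 6 contrasts. That fit called 0 to 51 of 19723 genes in a contrast, so 0 of 11 says little.

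Females and males were compared within each treatment. In controls 0 of the 8 tested members passed, where 16 of all genes did (0.112%), and in stressed rats 0 of 8, where 13 of all genes did (0.0913%). DESeq2 called 0 members in both, where it called 23 of all genes in controls and 14 in stressed rats. At an unadjusted p under 0.05 there were 0 of 8 members in controls, against 882 of all genes (6.19%), and 1 of 8 in stressed rats, against 809 (5.68%). That 1 was ENSRNOG00000058444, with 0.215 ± 0.112 CPM in stressed females and 0.550 ± 0.242 in stressed males (SD, n = 4), a log2 difference of -1.34, females over males (SE 0.57, adjusted p = 0.863, edgeR). The 2 genes that rose with stress had log2 differences, females over males, of -0.24 (SE 0.22) and -0.23 (SE 0.25) in controls and -0.12 (SE 0.21) and -0.23 (SE 0.24) in stressed rats.

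A measure of library makeup was the share of HTSeq entries outside annotated genes, taken over all entries, unaligned ones included. It lay between 13.1% and 14.0% in 3 stressed and between 16.6% and 22.0% in 3 control male libraries. In females 4 stressed libraries had 15.0% to 31.2% and 3 controls 10.2% to 18.4%. Unaligned entries made up 38.8% in male stress 14 and 40.8% in female control 7, where the median of the 13 HTSeq libraries was 14.4%. A larger unaligned part lowers the share outside genes, so these ranges do not by themselves show that the male groups differed. The part of this measure in the results was not tested. The kit built libraries from total RNA, and how well it captured transcripts without a poly(A) tail is not given in the sources used here.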

How the data were processed

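Total RNA went into libraries of the NuGen Ovation RNA-Seq System v2, which were read as 75 bp pairs, per the labels' protocols. The submitters' processing notes name HTSeq, STAR 2.5.2a, DESeq, bedtools and limma, and the build Rnor_6.0. The authors deposited raw counts per Ensembl gene. For 13 libraries the files have the HTSeq layout, with lines for reads of no gene (44.8% to 64.7% of entries) that were left out. The other 3, per the file headers, were counted by featureCounts 1.6.1 on Ensembl release 92, each mate on its own. For stressed females the number in a title differs from the one on its count file, and the title's is used.

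Counts were fitted with edgeR 4.0.16 (R 4.3.3): TMM factors, the filterByExpr filter (14241 genes), 1 robust quasi-likelihood fit over all 16 libraries with a coefficient for each of the 4 groups, and Benjamini-Hochberg adjustment over all genes tested. Standard errors (SE) belong to log2 fold changes. Levels are counts per M of the TMM-scaled library, mitochondrial counts included. No replicate pair held identical values (chi-square per degree of freedom 7.72 to 292). Intervals and limits cover counting error only.

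Alternatives were DESeq2 1.42.0, its size factors in edgeR, TMM without mitochondrial genes, no filter beyond 10 counts, the counting tool as a covariate or its 3 featureCounts libraries left out, each sex fitted alone, no length limit for the members, and each library left out in turn.

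Members named are those called in any contrast, the 10 with the highest level per length, the 3 with the smallest p in each stress contrast, and the longest and shortest; other members were named after their values were seen. Members, lists and contrasts were chosen with earlier results of these data known. Gene lists and markers fixed by symbol, and length classes defined from histone proteins, could not be applied, because the RefSeq table (47357 genes, GRCr8) holds 0 Ensembl identifiers and no protein table was at hand. Member coordinates (Rnor_6.0, counted from 1) are those in the featureCounts files, and promoters come from RefSeq on GRCr8.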

Additional observations from a re-analysis of the deposited data

Results flagged for a closer look

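ENSRNOG00000050933, a member of 312 bases, had 0.457 CPM in female control 7, from 11 counts, while the other 3 female controls had 0.181 to 0.192 CPM. The gap between this library and the nearest other, taken over the range of the group, was above the 95% critical value of Dixon's test for 4 samples. The screen covered 36 groups of 4 libraries, for the 8 tested members and the summed level, and chance marks about 1 in 20. The gene was called in no contrast.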

How the results depend on the processing

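The calls for stress on average over the sexes rest on 76 to 274 counts per library for ENSRNOG00000054978 and 87 to 336 for ENSRNOG00000047459. Too sparse to test were 17 of the 25 members, so absence of a call says little about these 17. ENSRNOG00000054978 was called in 22 of 22 alternatives (log2 fold change 0.77 to 0.93, adjusted p up to 0.0314) and ENSRNOG00000047459 in 20 of 22 (0.73 to 0.99, adjusted p up to 0.0550). Of these alternatives 16 left out 1 library each and shared the others, so they are not independent. Of all genes, the alternatives called from 28 (without female stress 3 or male control 20) to 103 (DESeq2), in either direction. Leaving out 1 library at a time gave 1 to 2 called members for the average, with 1 without female stress 3 or male control 20, and 0 in the other contrasts. Of all genes, these fits called 28 to 56 for the average and 0 to 21 in the other contrasts. With so few genes called there, 0 members says little. DESeq2 called 1 member in females, and fitting each sex alone called 1 in males and, with fewer libraries and members tested, moved the median in females from 0.31 to 0.87. DESeq2 called 103 genes of all for the average effect and edgeR 48, 27 against 9 in females and 30 against 17 in males.

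Among single genes, ENSRNOG00000059949 ran from -0.26 to 0.17 with libraries left out: it turned positive without female stress 4 (0.04), female control 7 (0.17), female control 8 (0.04), male stress 12 (0.04) or male control 16 (0.06). ENSRNOG00000051891 was -0.006 without female stress 3, with a range of -0.006 to 0.21. These 2 genes were uncalled throughout for the average effect, and the cause was not tested. Without a length limit, which adds genes to the members, 2 were called and the median fell from 0.56 to 0.35 for the average effect and moved from -0.40 to -0.17 for the difference between the sexes. The median in females was 0.18 without the featureCounts libraries and 0.18 to 0.54 with single libraries left out. No paired analysis was possible because the numbers in the titles run over the groups without repeats and pair no samples.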
